A study of Mus musculus with 108 samples.

Results

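The genes described are 10 genes of blood vessels, the rows of the count table whose Ensembl identifiers map to Cd93, Nrp1, Pcdh12, Kdr, Ets1, Tm4sf1, Igfbp7 and Mmrn1, named the 8 shifting genes, and to Cldn5 and Pecam1, named the vessel markers. All 10 were among the 53465 genes of the table. The 8 shifting genes were picked because their level was higher in Cul3+/- than in wild-type mice at postnatal day 7 (P7), so the P7 genotype differences are given as a description, with no test. The genotype contrasts at the other 2 periods come from other mice, and the contrasts between regions are made within mice. Those between periods use the mean of the 2 genotypes, which at P7 includes the higher level of the Cul3+/- mice. These contrasts were tested.

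From 36 mice, bulk RNA-seq of the cerebellum (CB), the hippocampus (HIP) and the cortex (CX) gave 108 libraries of ribosome-depleted, stranded total RNA. Each period, the embryonic period (E17.5 in the labels), P7 and the adult period (P35 in the labels), held 6 wild-type (WT) and 6 heterozygous Cul3+/- (HET) mice on a background that the labels spell C56Bl/6N. The HET mice carry a CRISPR/Cas9-made frameshift insertion of 1 base in Cul3 and all descend from a single founder that was bred back to wild-type mice. The allele is constitutive, so every cell type of the brain carries it. The labels and the study's own sample table gave opposite genotypes for 2 adult mice, whose 6 libraries were left out, so 5 WT and 5 HET adult mice remained and 102 libraries were used. The sex of each mouse was not given, and mice of E17.5 and P7 carried name prefixes (S2, S3, S4 and C1, C2, C4) whose meaning the labels do not state.

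Library totals ran from 15126114 to 44411282 counts. Levels are CPM (counts scaled to the library total) after TMM normalization over the 102 libraries, log2 fold changes come from edgeR fits of each comparison, and a gene was called at a Benjamini-Hochberg adjusted p below 0.1 over all genes tested. Cul3 itself separated the genotypes in every period and region: at P7 its level was 189.5 ± 6.36 CPM in WT and 104 ± 5.52 CPM in HET cortex (mean ± SD, n = 6 and 6). Cul3 was also the gene called in each of the 9 genotype comparisons, and no other gene was in these fits. In embryonic CX, where same-numbered WT and HET libraries deviated together, 55 of 16594 genes were called with the replicate number as a block. None of the members was among them. The markers of brain endothelium were present throughout, since all 18 genes of a pan-endothelial list (such as Cd34, Ptprb and Egfl7) passed the low-count filter in each of the 9 datasets.

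CUL3 is the scaffold of a family of ubiquitin ligases that use BTB-domain adaptors to select their substrates. Brain vessels grow inward from the pial surface before birth and continue to branch in the first weeks after it, under the control of VEGF, Notch and Wnt signals, and then become quiescent and tighten their barrier. Of the members, Kdr encodes VEGF receptor 2, the main growth receptor of endothelial cells, and Nrp1 a co-receptor of VEGF and of class 3 semaphorins that neurons also use for axon guidance. Cd93 is an endothelial surface receptor of growing vessels, and Igfbp7 is a secreted protein of the vessel wall that binds it. Ets1 is a transcription factor of the ETS family, which drives many endothelial genes. Pcdh12 is a protocadherin of endothelial junctions, Tm4sf1 a small membrane protein with a tetraspanin-like topology, and Mmrn1 a multimerin stored in platelets and made by endothelium. Cldn5 is the main claudin of the tight junctions of the blood-brain barrier, and Pecam1 an adhesion molecule found on endothelial cells, platelets and some leukocytes.

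The promoter windows of 6 members were at hand, from 250 bases before to 50 bases after the RefSeq transcription start (GRCm38.p6). Kdr, Tm4sf1 and Mmrn1 are shown as the growth receptor, the member with the widest genotype difference over the regions at P7, and the member whose level changed most with age, beside the vessel marker Cldn5. Capitals mark matches, on either strand, to CCGGAA or AGGAAG (core motifs of ETS factors such as Ets1) or to ACAATG (a SOX core), and a GATA core, AGATAA, was searched for as well.
Kdr: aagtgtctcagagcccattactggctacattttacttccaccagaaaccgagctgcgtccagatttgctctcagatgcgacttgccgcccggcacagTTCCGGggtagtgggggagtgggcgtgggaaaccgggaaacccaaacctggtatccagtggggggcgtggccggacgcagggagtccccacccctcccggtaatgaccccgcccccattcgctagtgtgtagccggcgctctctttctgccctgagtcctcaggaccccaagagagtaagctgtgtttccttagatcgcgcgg
Tm4sf1: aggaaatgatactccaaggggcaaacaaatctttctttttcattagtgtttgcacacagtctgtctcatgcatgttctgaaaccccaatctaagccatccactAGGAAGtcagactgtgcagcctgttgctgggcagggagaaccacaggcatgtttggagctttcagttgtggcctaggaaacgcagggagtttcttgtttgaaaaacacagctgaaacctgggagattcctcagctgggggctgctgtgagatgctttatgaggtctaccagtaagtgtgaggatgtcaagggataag
Mmrn1: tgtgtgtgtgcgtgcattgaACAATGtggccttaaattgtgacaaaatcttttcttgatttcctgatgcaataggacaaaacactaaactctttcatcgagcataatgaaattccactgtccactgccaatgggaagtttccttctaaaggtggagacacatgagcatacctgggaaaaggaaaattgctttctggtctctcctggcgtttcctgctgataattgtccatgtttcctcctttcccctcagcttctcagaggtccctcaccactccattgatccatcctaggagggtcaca
Cldn5: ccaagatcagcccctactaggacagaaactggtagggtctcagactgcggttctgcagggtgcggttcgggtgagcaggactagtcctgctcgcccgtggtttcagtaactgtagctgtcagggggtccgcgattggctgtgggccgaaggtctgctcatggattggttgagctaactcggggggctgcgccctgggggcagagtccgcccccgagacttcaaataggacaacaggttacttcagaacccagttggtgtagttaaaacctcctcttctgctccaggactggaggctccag

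These windows are chr5:75978406-75978705 (minus strand) for Kdr, chr3:57301939-57302238 (minus strand) for Tm4sf1, chr6:60944067-60944366 (plus strand) for Mmrn1 and chr16:18776597-18776896 (plus strand) for Cldn5. The Kdr window held CCGGAA on the other strand, with its leftmost base 153 bases before the start. The Tm4sf1 window held AGGAAG 147 bases before the start, the Nrp1 window (not shown) AGGAAG 91 bases before it, and the Mmrn1 window ACAATG 230 bases before it. The RefSeq start used for Mmrn1 lies inside the gene as annotated in GENCODE M21 (chr6:60924976-60989378), so its window is not at the first base of that gene. The windows of Igfbp7 and Cldn5 held none of the 4 motifs. An ETS motif of either form was thus found in 3 of the 6 windows, and in 45.2% of the 32851 promoters of the table. CCGGAA alone occurred in 14.9%, AGGAAG in 35.4%, ACAATG in 12.6% and AGATAA in 11.2% of them. A match is a stretch of letters and no measured binding site.

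How far the members follow endothelial content was read from WT libraries, as the correlation of within-group deviations of log2 CPM with the mean deviation of the pan-endothelial list (Pearson r over 51 libraries, which share mice across regions, as well as depth and dissection). Kdr had the highest r, 0.78, followed by Cd93 with 0.72 and Igfbp7 with 0.71. Pecam1 and Tm4sf1 both had r = 0.61, Ets1 0.63 and Cldn5 0.51. Mmrn1 had r = 0.37 and Pcdh12 0.27. Nrp1 had r = −0.04: in whole brain tissue its level did not follow the endothelial list, so the name endothelial was not borne out for Nrp1 by this measure. Tm4sf1 and Cldn5 had a higher r with fibroblast markers (0.76 and 0.52), and Mmrn1 with border macrophage markers (0.45). Kdr had nearly the same r with markers of mural cells (0.78), so its r does not single out endothelial content. These values pool 3 periods: over the 18 WT libraries of P7, r with the pan-endothelial list was 0.72 for Kdr and 0.71 for Cd93, but 0.33 for Tm4sf1, 0.32 for Cldn5, 0.26 for Ets1 and −0.15 for Pcdh12. Mmrn1 had 0.40 there, and 0.85 with the border macrophage markers. Pecam1 had 0.52 there, and 0.60 with the mural and 0.59 with the fibroblast markers. Tm4sf1 had r = 0.54 with the choroid plexus markers in these P7 libraries. The genes whose deviations were most like the mean of the 8 shifting genes, among 14777 genes, were Nid2 (r = 0.80), Clec14a (0.79), Bcam (0.77), Adgra2 (0.77) and Slc6a20a (0.77), against 0.60 for Cldn5 and 0.64 for Pecam1. In bulk tissue, a difference in the number of endothelial cells and a difference in RNA per endothelial cell cannot be told apart.

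At P7 the mean level of each of the 8 shifting genes was higher in HET than in WT mice in all 3 regions, by log2 fold changes of 0.08 to 0.50. This is what the genes were chosen for. In the same dataset a share of 14.2% of all genes had a positive log2 fold change in all 3 regions. Tm4sf1 and Mmrn1 had the widest differences, with a mean over the regions of 0.41 and 0.40, followed by Igfbp7 with 0.29, Pcdh12 with 0.24 and Cd93 with 0.20. Nrp1 (0.17), Ets1 (0.14) and Kdr (0.13) had the narrowest. Over all genes tested at P7, 0.00566%, 0.00563% and 0.0057% (Cul3) were called in CX, HIP and CB, a background from which nothing is read for genes chosen on that contrast.

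Among the receptors, Cd93 ranged from 51.6 to 60.4 CPM (median 57) in WT hippocampus and from 62.1 to 73.2 CPM (median 67.5) in HET hippocampus. All 6 HET libraries lay above all 6 WT libraries, as was the case for 0.158% of genes tested there. The log2 fold change of Cd93 was 0.24 (SE 0.05) in HIP, 0.24 (SE 0.06) in CX and 0.12 (SE 0.04) in CB, and in the last 2 regions the genotypes overlapped. Kdr had a log2 fold change of 0.10 (SE 0.06) in CX, 0.13 (SE 0.09) in HIP and 0.16 (SE 0.04) in CB. Without the library of HET mouse C1_3, its value in HIP was 0.04. In CB, Kdr ranged from 58.2 to 67.7 CPM (median 60) in WT and from 64.1 to 71.5 CPM (median 68) in HET mice, and 3 of the 6 HET libraries exceeded every WT library. Nrp1 differed most in CB, where its level was lowest: 20.3 to 21.7 CPM (median 21.3) in WT and 22.9 to 28.8 CPM (median 25.2) in HET mice. The genotypes did not overlap there, which held for 0.125% of genes tested in P7 cerebellum, and the log2 fold change was 0.29 (SE 0.06). In HIP, where Nrp1 was far more abundant, its log2 fold change was 0.11 (SE 0.08) with overlapping ranges, 243 to 302 CPM in WT and 253 to 346 CPM in HET mice.

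Igfbp7, the ligand of Cd93, ranged from 13.3 to 15.8 CPM (median 14.4) in WT cortex and from 16.1 to 19.3 CPM (median 17.47) in HET cortex, without overlap, which was seen for 0.0736% of genes tested in P7 cortex. In CB it ranged from 20.7 to 27.19 CPM (median 24.9) in WT and from 27.22 to 32.3 CPM (median 28.7) in HET mice. The lowest HET library thus lay only just above the highest WT library. A lack of overlap was seen for 0.125% of genes tested in P7 cerebellum. In HIP the ranges met, 14.5 to 20 CPM (median 16) against 17.9 to 24.7 CPM (median 20.7). The log2 fold changes of Igfbp7 were 0.30 (SE 0.06), 0.32 (SE 0.09) and 0.26 (SE 0.07) in CX, HIP and CB, nearly equal in the 3 regions. Mmrn1 was at 2.38 ± 0.59 CPM in WT and 3.34 ± 0.66 CPM in HET cortex. Its log2 fold change was 0.49 (SE 0.17) in CX, 0.50 (SE 0.13) in HIP and 0.22 (SE 0.11) in CB. In HIP, 4 of the 6 HET libraries of Mmrn1, which ranged from 3.48 to 5.16 CPM (median 4.66), exceeded the highest WT library of 3.79 CPM, and in every region the genotypes overlapped.

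Among the membrane and junction proteins, Tm4sf1 had a log2 fold change of 0.33 (SE 0.11) in CX, 0.50 (SE 0.13) in HIP and 0.42 (SE 0.15) in CB. Its HIP libraries ranged from 11 to 15.2 CPM (median 13.3) in WT and from 13.4 to 23.3 CPM (median 18.5) in HET mice. Pcdh12 had log2 fold changes of 0.34 (SE 0.09), 0.20 (SE 0.09) and 0.17 (SE 0.07) in CX, HIP and CB, and its CX libraries ranged from 5.83 to 7.7 CPM (median 6.72) in WT and from 7.31 to 9.53 CPM (median 8.53) in HET mice. The transcription factor Ets1 differed chiefly in CX, with 37.6 ± 1.93 CPM in WT and 43.8 ± 3.69 CPM in HET mice and a log2 fold change of 0.23 (SE 0.06). In HIP and CB its log2 fold changes were 0.08 (SE 0.05) and 0.12 (SE 0.05), and the ranges overlapped.

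The vessel markers were not flat in all regions at P7. Cldn5 was at 51.8 ± 4.07 CPM in WT and 60.5 ± 5.27 CPM in HET cortex, a log2 fold change of 0.23 (SE 0.06), as wide as that of Ets1 (0.23) and Cd93 (0.24) in that region. In HIP its log2 fold change was 0.18 (SE 0.07), with libraries from 58.3 to 73.3 CPM (median 66) in WT and from 64.9 to 85.7 CPM (median 73.7) in HET mice. In CB the Cldn5 means were close, at 80.2 ± 6.36 CPM in WT and 78.8 ± 3.57 CPM in HET mice. Pecam1 had log2 fold changes of 0.09 (SE 0.07), 0.17 (SE 0.08) and 0.11 (SE 0.05) in CX, HIP and CB. The name stable was thus not borne out by the values of Cldn5 in CX and HIP. The value of Pecam1 in HIP was close to that of Cldn5 there, but it was 0.11 without the library of HET mouse C1_3.

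**Figure D1:**
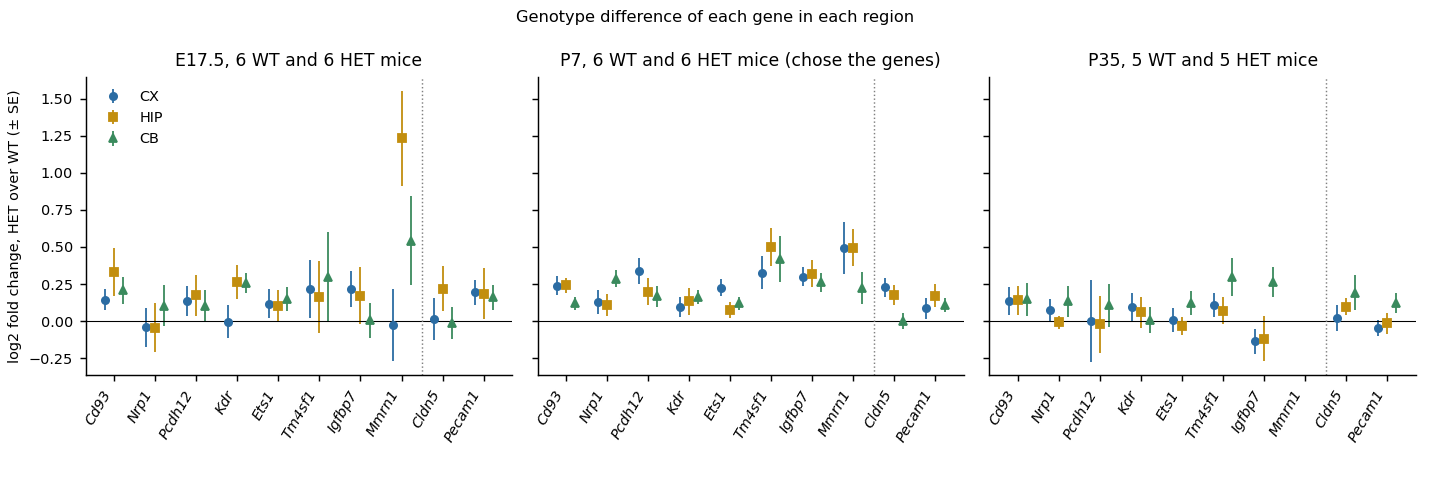
Log2 fold change of HET over WT (vertical axis, points with bars of 1 SE) of the 10 genes in CX, HIP and CB at E17.5, P7 and P35; the dotted line separates the 8 shifting genes from Cldn5 and Pecam1. At P7 all points of the 8 shifting genes lie between 0.08 and 0.50, and Cldn5 lies at 0.23, 0.18 and about 0.

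Set against the markers, the 8 shifting genes had a median log2 fold change of 0.27 in CX, 0.22 in HIP and 0.19 in CB at P7, and the median of all genes was between 0.00 and 0.01. In CB all 8 exceeded both markers. In CX, 5 of the 8 exceeded Cldn5 and all 8 exceeded Pecam1, and in HIP 5 of the 8 exceeded each of them. Averaged over the regions, Kdr (0.13) and Ets1 (0.14) lay next to Cldn5 (0.13) and Pecam1 (0.12). The ratio of Kdr to Cldn5 was 0.847 ± 0.142 in WT and 0.766 ± 0.024 in HET cortex, and this WT mean includes a library at 1.12. In CB the same ratio was 0.771 ± 0.065 in WT and 0.863 ± 0.061 in HET mice, with 4 of 6 HET libraries above every WT library. Per Pecam1, the mean ratio of Kdr was higher in HET mice by 0.06% in CX and 3.9% in CB. Igfbp7 per Pecam1 was higher in HET mice in all 3 regions, by 15.9% in CX, 11.3% in HIP and 11.2% in CB, with 4, 2 and 5 of the 6 HET libraries above every WT library. Igfbp7 per Cldn5 was higher by 5.1%, 10.4% and 19.6% in the same order, with 2, 2 and 3 of the 6 above every WT library. At P7, in no region did the ratio of any shifting gene to either marker separate the 6 HET from the 6 WT libraries.

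Averaged over the 3 regions of each mouse, the mean log2 CPM of the 8 shifting genes ran from 4.34 to 4.503 in the 6 WT mice and from 4.61 to 4.83 in the 6 HET mice at P7. Every HET mouse lay above every WT mouse, as the choice of the genes favours. The highest HET mouse, C1_3, stood at 4.83 and the next at 4.67. Without Mmrn1, the ranges were 4.73 to 4.85 and 4.96 to 5.17. Taken singly, Cd93, Igfbp7 and Mmrn1 separated all 6 HET from all 6 WT mice in these means, as 0.183% of all genes did. Ets1 and Tm4sf1 had 5 of the 6 HET mice above every WT mouse, and Nrp1, Pcdh12 and Kdr had 4. Cldn5 also had 4, and Pecam1 had 3. Within the name prefixes, the mean difference of the 8 genes was 0.25 log2 in C1 (2 WT and 2 HET mice), 0.22 in C2 (3 and 3) and 0.26 in C4 (1 and 1), again values of the contrast that chose the genes.

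**Figure D2:**
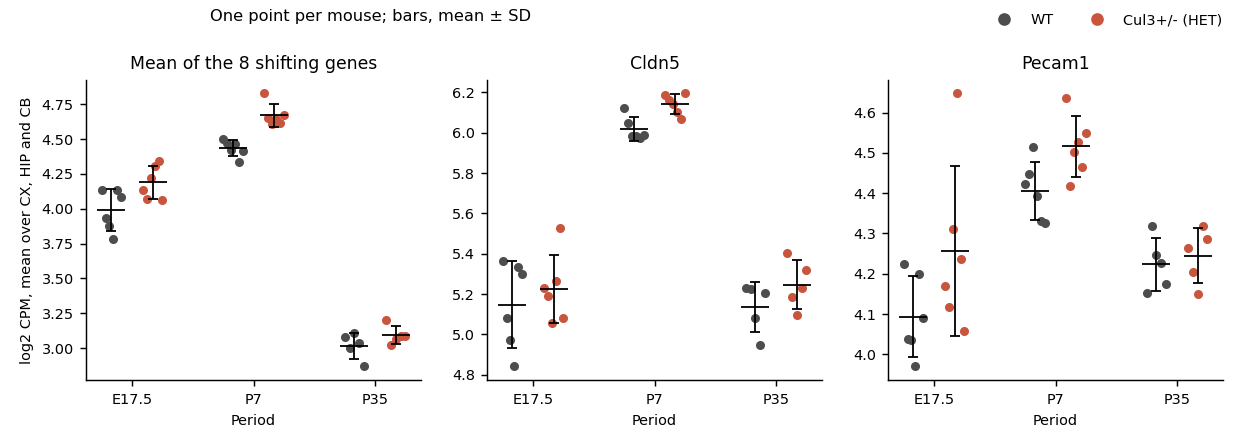
Mean log2 CPM over CX, HIP and CB (vertical axis) of the 8 shifting genes, of Cldn5 and of Pecam1, with 1 point per mouse, mean and SD, by period. At P7 the 6 HET mice (4.61 to 4.83) lie above the 6 WT mice (4.34 to 4.503) for the 8 genes, and the genotypes overlap at E17.5 and P35.

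Other vessel genes were also higher in mean in HET mice at P7. In a pan-endothelial list of 18 genes, 16, 18 and 14 had a positive log2 fold change in CX, HIP and CB, with medians of 0.12, 0.19 and 0.10, where 50%, 52.5% and 51.7% of all genes tested did. Its most abundant genes had small differences, such as Cd34 with 0.04 (SE 0.08) in CX and 0.13 (SE 0.05) in CB. All 8 genes of the basement membrane were above 0 in each region, with medians of 0.13, 0.23 and 0.13, among them Col4a1, the main chain of vascular collagen, at 0.23 (SE 0.08) in CX and 0.17 (SE 0.10) in HIP. The 17 barrier genes had medians of 0.07, 0.06 and 0.06, and Bsg, a chaperone of lactate transporters, was at 0.00 (SE 0.06) in CX. The 11 genes of the VEGF pathway, of which 10 were tested in CB, had medians of 0.02, 0.09 and 0.10, and Vegfa, the ligand of Kdr, was at 0.09 (SE 0.04) in CX. The 13 tip-cell and Notch genes had medians of 0.05, 0.17 and 0.03, and 6 other ETS factors 0.08, 0.15 and 0.09.

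Markers of other cell types also differed between the genotypes at P7. All 9 fibroblast genes in CX and CB and 8 of 9 in HIP had positive log2 fold changes, with medians of 0.26, 0.31 and 0.14 in CX, HIP and CB, and the summed level of the list ran from 163 to 412 CPM in HET and from 196 to 302 CPM in WT cortex. Of 12 mural genes, 8, 11 and 9 were above 0, with medians of 0.11, 0.21 and 0.06. Microglia went the other way, with 1, 1 and 2 of 6 genes above 0 and medians of −0.12, −0.10 and −0.08. Border macrophage genes had medians of 0.07, 0.13 and 0.14, with 5, 5 and 4 of 5 above 0, and red cell genes of 0.20, 0.22 and 0.06, with all 5 above 0 in each region. The choroid plexus list of 7 genes had a median log2 fold change of −0.05 in CX (6 genes tested), 2.35 in HIP and 1.89 in CB. In HIP this list was carried by the library of HET mouse C1_3, with 4335 CPM in sum against 9.35 to 164 CPM in the other HET and the WT libraries. The mean of its markers was 5.93 log2 CPM in that library, −0.46 to 1.57 in the other 5 HET libraries and −0.21 to 2.07 in the 6 WT libraries, so without it the HET libraries were not above the WT libraries.

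That library also held the highest fibroblast sum, 861 CPM, and without it the median log2 fold change of the 8 shifting genes in HIP was 0.17 and not 0.22. In CB, 5 of 6 HET and 2 of 6 WT libraries had a mean of the choroid plexus markers of 2.98 to 5.30 log2 CPM, and the other 5 libraries 0.10 to 0.80. Tm4sf1 was at 9.35 to 11.91 CPM in the 5 HET libraries and at 5.83 CPM in the HET library with low markers (mouse C2_5). In WT mice it was at 8.65 and 8.13 CPM in the 2 libraries with high markers (mice C1_5 and C2_10). The WT libraries with low markers held 6.41 to 8.12 CPM. The part of choroid plexus cells in the level of Tm4sf1 was not tested. In CB, Cd93 was highest, at 77.19 CPM, in the library of mouse C2_5 with low choroid plexus markers. In HIP it was highest, at 73.23 CPM, in the library of mouse C1_3, which had the highest choroid plexus markers. The part of choroid plexus cells in the level of Cd93 was not tested either.

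**Figure D3:**
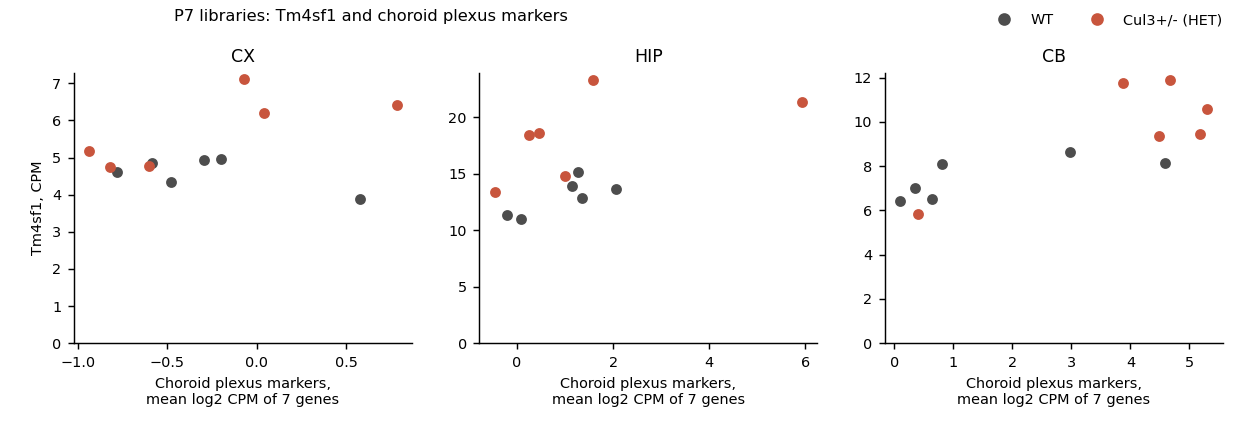
Tm4sf1 level in CPM (vertical axis) against the mean log2 CPM of 7 choroid plexus markers (horizontal axis) in each P7 library, WT in grey and HET in red, for CX, HIP and CB. In CB the HET library with low markers has 5.83 CPM of Tm4sf1 and the other 5 have 9.35 to 11.91 CPM. The WT libraries with high markers there have 8.65 and 8.13 CPM, and those with low markers 6.41 to 8.12 CPM.

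**Figure D4:**
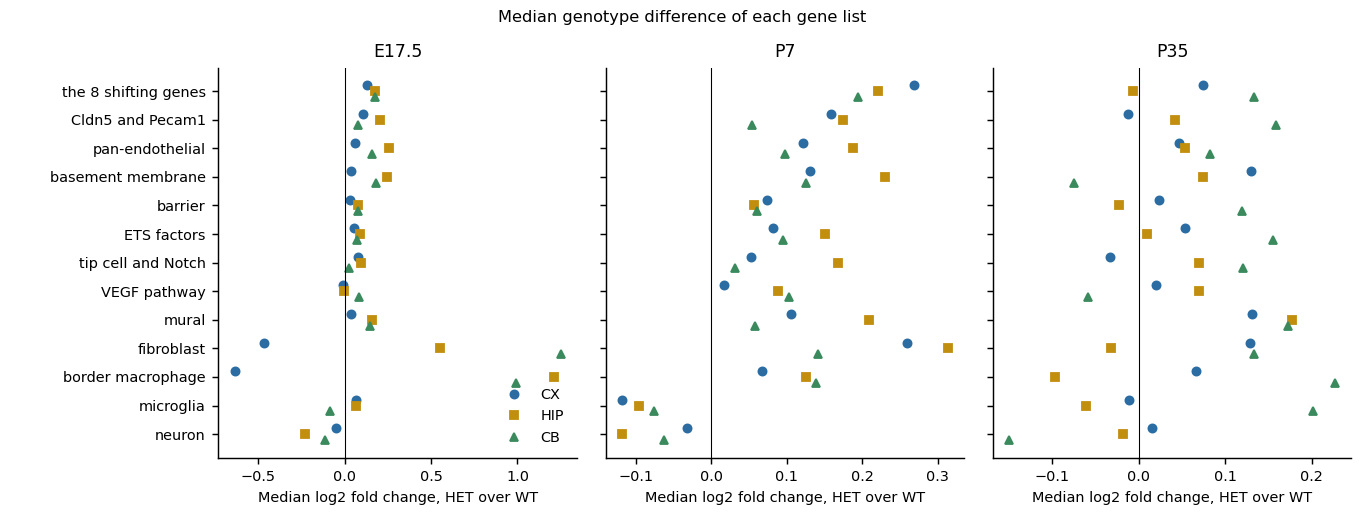
Median log2 fold change of HET over WT (horizontal axis, scaled separately for each period) of each gene list (rows) in CX, HIP and CB at E17.5, P7 and P35. At P7 the 8 shifting genes lie at 0.27, 0.22 and 0.19 and the pan-endothelial list at 0.12, 0.19 and 0.10, and microglia lie below 0.

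The genotype difference was tested in other mice, the embryos and the adults. No member was called at E17.5, where adjusted p was between 0.94 and 1.0 in edgeR's quasi-likelihood test and where 0.00603%, 0.00586% and 0.00568% of genes were called in CX, HIP and CB. No member was called at P35 either, where 0.00569%, 0.00584% and 0.00584% were called and adjusted p was between 0.33 and 1.0. Mmrn1 fell under the low-count filter in all 3 adult regions and was not tested there.

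At E17.5 the 8 shifting genes had a median log2 fold change of 0.13 in CX, 0.17 in HIP and 0.18 in CB, of which 5, 7 and 8 were above 0, where 49.5%, 50.8% and 51.1% of all genes tested were. No member separated the genotypes without overlap, as 0.0422%, 0.0528% and 0.0454% of genes did with HET above WT. Mmrn1 in HIP was the widest, from 0.857 to 3.13 CPM (median 1.84) in WT and from 2.73 to 6.98 CPM (median 4.02) in HET embryos. Its log2 fold change was 1.23 (SE 0.32), with an unadjusted p of 0.0021 and an adjusted p of 0.94 (edgeR), and 4 of 6 HET libraries lay above every WT library. In ratios to the vessel markers the genotypes did not overlap there, with a narrow gap for Cldn5. Mmrn1 per Cldn5 was at most 0.0612 in WT and at least 0.0633 in HET embryos, and Mmrn1 per Pecam1 at most 0.131 and at least 0.150. No other shifting gene, period or region separated in these ratios. The share of all genes whose ratios separate was not determined, so nothing is read from this gap. Kdr in CB ranged from 39.7 to 48.2 CPM (median 44.2) in WT and from 46.4 to 60.5 CPM (median 51.8) in HET embryos, a log2 fold change of 0.26 (SE 0.07) with an unadjusted p of 0.0019 and an adjusted p of 0.99 (edgeR). Kdr in HIP (log2 fold change 0.26, SE 0.11), Cd93 in CB (0.21, SE 0.09) and Pecam1 in CX (0.19, SE 0.09) also had an unadjusted p below 0.05, as 2.29%, 3.5% and 1.67% of all genes tested did in HIP, CB and CX. Nrp1 had log2 fold changes of −0.04 in CX, −0.04 in HIP and 0.10 in CB, each smaller than its SE.

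The embryonic differences were uneven over the name prefixes. The mean over the 8 genes and 3 regions was 0.43 log2 in the 2 WT and 2 HET embryos of prefix S3, 0.07 in S2 and 0.09 in S4. Mmrn1 alone was above 0.2 in all 3 prefixes (0.52, 0.82 and 0.28 in S2, S3 and S4). The cerebellum of HET embryo S4_3 held 4.48 CPM of Mmrn1 against 1.28 to 1.61 CPM in the other 5, and without it the log2 fold change of Mmrn1 in CB was 0.12 and not 0.54. Over all mice, the mean of the 8 genes was 3.99 ± 0.15 log2 CPM in WT and 4.19 ± 0.12 in HET embryos, and 4 of the 6 HET embryos exceeded every WT embryo.

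In adults the median log2 fold change of the 7 shifting genes tested was 0.07 in CX, −0.01 in HIP and 0.13 in CB, and 6, 3 and 7 of the 7 were above 0, where 52%, 48.7% and 50.3% of all genes were. No member had all HET above all WT libraries, as 0.211%, 0.514% and 2.03% of genes did in CX, HIP and CB. In CX and HIP none of the members had an unadjusted p below 0.05, against 3.66% and 6.25% of all genes. Igfbp7, without overlap at P7 in CX and by a very narrow gap in CB, had −0.14 (SE 0.09) in CX and −0.12 (SE 0.15) in HIP, and 0.26 (SE 0.10) in CB. In adult CB, Igfbp7 stood at 13.47, 13.67, 14.46, 14.54 and 19.05 CPM in WT and at 16.54, 17.82, 18.42, 18.66 and 20.52 CPM in HET mice, with an unadjusted p of 0.022 and an adjusted p of 0.33 (edgeR). The WT library of 19.05 CPM lay within the HET range and the other 4 below it. Tm4sf1 in the same region stood at 8.24, 11.18, 12.6, 13.12 and 13.32 CPM in WT and at 12.61, 14.02, 14.54, 15.57 and 16.53 CPM in HET mice, a log2 fold change of 0.30 (SE 0.13) with an unadjusted p of 0.036 and an adjusted p of 0.34 (edgeR). Unadjusted p was below 0.05 for 14.4% of all genes in adult CB. Cd93 had nearly the same value in the 3 adult regions, 0.14, 0.14 and 0.15, each within 2 SE of 0. The mean of the 8 genes, with Mmrn1 included, was 3.02 ± 0.09 log2 CPM in WT and 3.09 ± 0.07 in HET adults, with 1 of 5 HET mice above every WT mouse. Without Mmrn1, which fell under the low-count filter there, it was 3.82 ± 0.11 in WT and 3.89 ± 0.11 in HET adults, with 2 of 5 above.

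The members differed between periods by up to 5.50 log2. Between P7 and P35, 8 of the members fell and 1 rose in CX, 9 fell and none rose in HIP, and 9 fell and 1 rose in CB, where 40%, 36.9% and 42.4% of all genes tested fell and 38%, 36.2% and 41.8% rose. Most of the transcriptome changed over these intervals, so the sizes say more than the counts. Mmrn1 fell the most, by 4.82 (SE 0.23), 4.98 (SE 0.28) and 5.50 (SE 0.24) log2 in CX, HIP and CB, from 2.38 to 0.081 CPM in WT cortex. Pcdh12 fell by 2.43, 2.63 and 2.02 and Cd93 by 1.43, 1.80 and 1.55 log2 in the same order. Kdr fell by 0.999, 1.36 and 1.38, and Ets1 by 0.86, 1.12 and 1.32 log2. The pan-endothelial list had medians of −0.29, −0.70 and −0.57, and Mmrn1, Pcdh12, Cd93, Kdr, Ets1, Nrp1 and the vessel marker Cldn5 fell by more than that median in each region. Nrp1 fell by 0.62 (SE 0.08), 0.96 (SE 0.09) and 0.75 (SE 0.08) log2.

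Of the vessel markers, Cldn5 fell by 0.66 (SE 0.08), 0.92 (SE 0.08) and 0.996 (SE 0.07) log2 in CX, HIP and CB. Pecam1 was at −0.04 (SE 0.06, adjusted p = 0.54, edgeR) in CX, −0.35 (SE 0.09) in HIP and −0.21 (SE 0.05) in CB. Tm4sf1 was the exception in direction: it rose by 0.87 (SE 0.09) log2 in CX and by 0.62 (SE 0.15) in CB, and in HIP it was at −0.04 (SE 0.13, adjusted p = 0.77, edgeR). Igfbp7 fell by 0.22 (SE 0.07), 0.82 (SE 0.12) and 0.68 (SE 0.07) in CX, HIP and CB. The fall in CX was not seen with WT libraries alone, where Igfbp7 was at 0.00595 log2.

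Between E17.5 and P7 the courses diverged. In CX 8 members rose and 2 fell, in HIP 4 rose and 2 fell, and in CB 9 rose and 1 fell, where 44.5%, 42.1% and 40.3% of all genes rose and 43.6%, 43.3% and 40.8% fell. Tm4sf1 rose in every region, by 1.93 (SE 0.10), 1.45 (SE 0.12) and 2.19 (SE 0.16) log2 in CX, HIP and CB. Mmrn1 rose by 1.32 (SE 0.16) in CX and 2.10 (SE 0.16) in CB, with 0.31 (SE 0.18, adjusted p = 0.11, edgeR) in HIP. Cldn5 rose by 0.84, 0.62 and 1.08 log2, and Igfbp7 by 0.36, 0.29 and 1.08. Kdr rose in CX (0.24, SE 0.07) and CB (0.42, SE 0.05) and fell in HIP (−0.48, SE 0.08). Nrp1 fell in every region, by 1.89 (SE 0.08), 1.08 (SE 0.08) and 0.71 (SE 0.08). The pan-endothelial list had medians of 0.67, 0.39 and 0.90 over the same interval.

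**Figure D5:**
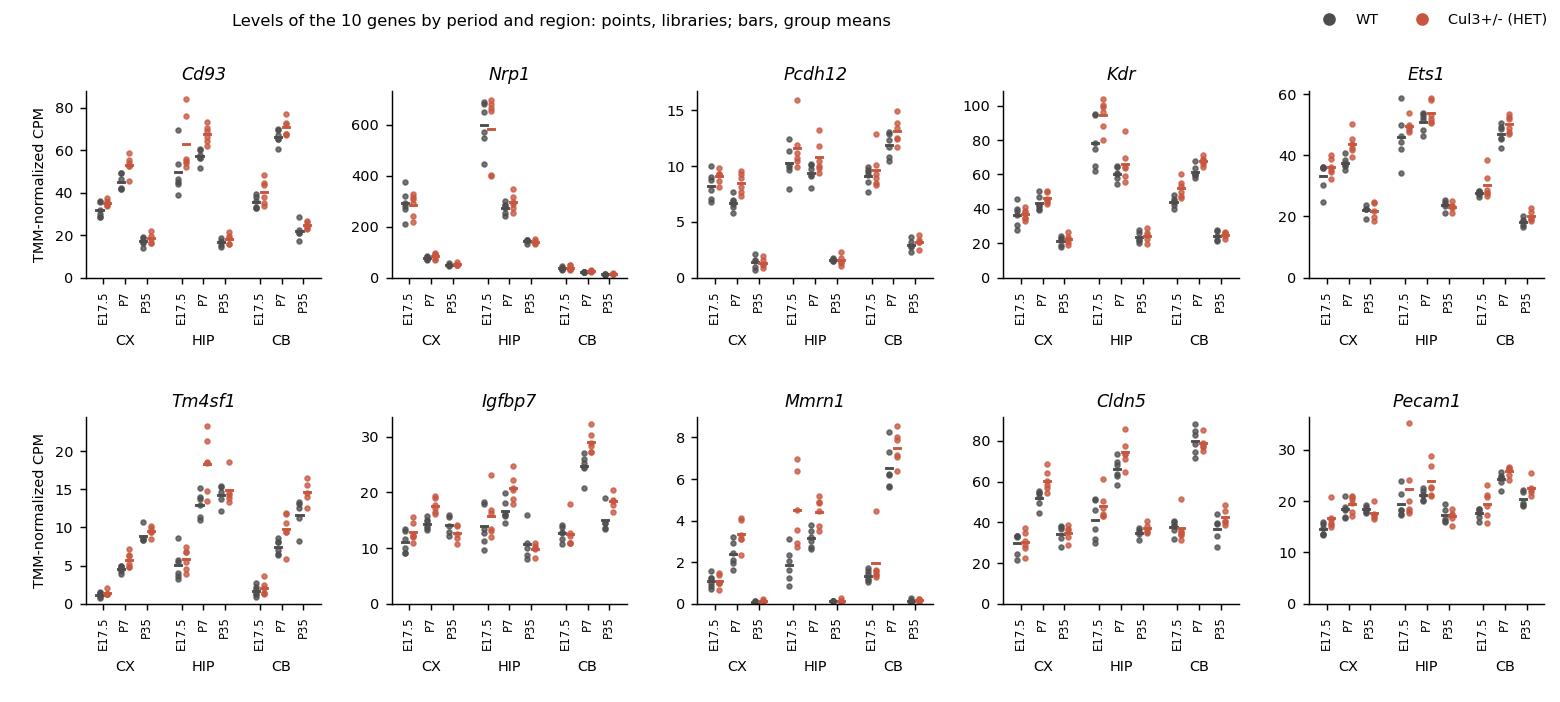
Level in CPM (vertical axes from 0) of each gene in every library, grouped by region and period along the horizontal axis, with WT in grey, HET in red and bars at group means. Most genes peak at P7 or before, Mmrn1 is close to 0 at P35, and Tm4sf1 is higher in adults than in embryos in all regions.

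Regions were compared within mice. At P7, all 10 members were lower in CX than in HIP and 9 were lower in CX than in CB, where 33.5% and 46.9% of all genes tested were lower and 33.7% and 40.2% higher. Of the contrasts of HIP with CB, 2 members were higher in HIP (Nrp1 and Tm4sf1) and 7 lower, against 38.2% and 44.7% of all genes. Nrp1 had the widest differences of all members, with a level 11.5-fold higher in HIP than in CB and 3.301-fold higher in CX than in CB. Tm4sf1 was 1.71-fold higher in HIP than in CB and 2.95-fold lower in CX than in HIP. Mmrn1 was 2.62-fold lower in CX than in CB.

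The order of regions differed with age. At E17.5 all 10 members were lower in CX than in HIP and 10 were higher in HIP than in CB (30.5% and 32.9% of all genes, with 34.1% and 32% in the opposite directions), with Kdr 2.37-fold lower in CX than in HIP, and 7 were lower and 2 higher in CX than in CB (35.9% and 37.1%). With WT libraries alone, 5 members were called between HIP and CB at E17.5. At P35, 4 of the 9 members tested were lower and 1 was higher in CX than in HIP (35.1% and 31.3%), and without HET replicate 3 or with WT libraries alone 3 members were called in all. Cd93, Cldn5 and Pecam1 had log2 differences of 0.04, −0.05 and 0.08 there that were not called (adjusted p = 0.52, 0.43 and 0.13, edgeR). Of the 9, 7 were lower and 2 higher in CX than in CB (43.2% and 39.7%), and 5 lower and 3 higher in HIP than in CB (41.6% and 40.4%). Nrp1 kept HIP above CX and CX above CB at every period.

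All 10 members were annotated as protein-coding in GENCODE M21 on GRCm38. Kdr (ENSMUSG00000062960) lies on the minus strand at chr5:75932827-75978458, and Igfbp7 (ENSMUSG00000036256) on the same strand of that chromosome at chr5:77349240-77408041. Tm4sf1 (ENSMUSG00000027800) is at chr3:57285611-57301988 on the minus strand, Cd93 (ENSMUSG00000027435) at chr2:148436640-148443563 on the minus strand, and Nrp1 (ENSMUSG00000025810) at chr8:128358604-128503363 on the plus strand. Mmrn1 (ENSMUSG00000054641) is at chr6:60924976-60989378 on the plus strand, Ets1 (ENSMUSG00000032035) at chr9:32636221-32757820 on the plus strand, and Pcdh12 (ENSMUSG00000024440) at chr18:38267089-38284402 on the minus strand. The vessel markers Cldn5 (ENSMUSG00000041378) and Pecam1 (ENSMUSG00000020717) are at chr16:18776847-18778262 on the plus strand and chr11:106654217-106750628 on the minus strand. Igfbp7 overlaps Polr2b and an antisense RNA on the other strand, and Ets1 overlaps an antisense RNA. The strand setting of the counting is not given in the sources used here, so reads of these overlaps could not be assigned with certainty.

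Levels were compared between members per kilobase of exon, without a test of the order. In WT hippocampus at P7, Cldn5 was at 46.6 CPM per kb, Nrp1 at 28.01, Igfbp7 at 13.8 and Cd93 at 8.55. Kdr (6.69) and Ets1 (6.02) came next, followed by Pecam1 (3.41), Tm4sf1 (3.12), Pcdh12 (1.55) and Mmrn1 (0.536). In WT cerebellum Nrp1 was at 2.17 CPM per kb, below Pecam1 with 3.90, and Cldn5 led again with 56.6.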

How the data were processed

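The authors trimmed reads with Cutadapt 1.14, aligned them with STAR 2.5.3a to GRCm38 and deposited RSEM 1.3 expected counts per gene without normalization. An expected count can hold part of a read shared by several transcripts, and 5.76% of the deposited values were not whole numbers.

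Tests ran on rounded values in edgeR 4.0.16 under R 4.3.3: filterByExpr (minimum count 10, minimum total count 15), TMM, glmQLFit and glmQLFTest, with Benjamini-Hochberg adjustment over all genes tested and calls at 0.1. Genotype was fitted in each period and region without covariates, periods on the mean of the genotypes within a region, and regions with the mouse as a block. The study's factors of unwanted variation and its term for sex were left out, because their values were not given. An SE was obtained from a log2 fold change and its F statistic, as |log2 fold change|/√F. Log2 CPM used a prior count of 2. Of the identifiers, 53274 of 53465 had a symbol. Coordinates and exon lengths are from GENCODE M21, and promoters from RefSeq (GRCm38.p6), which held 6 of the 10 members. Each fit was tested on simulated counts.

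The members and gene lists were chosen with earlier results of these data known. All 10 members are named. Of the other lists, only the 3 most abundant genes may be named, with the 5 genes most like the shifting genes and Cul3. The alternatives tried were DESeq2 1.42.0, normalization to the upper quartile, all genes with a count, RUVs with 3 factors, blocks by replicate number or name prefix, WT libraries alone, the 2 adult mice put back, and each replicate left out. Counts summed over the 3 regions of a mouse, and P7 hippocampus without the library of mouse C1_3, were added after seeing the data.

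Over 240 pairs of replicates, counts differed by 5.73 to 161 times the sampling noise (chi-square per degree of freedom), so no library was a copy of another. Each mouse gave 1 library per region, so the spread is between mice. In embryonic CX all 6 pairs of same-numbered WT and HET libraries deviated together (r from 0.113 to 0.757, each above 0.1). In HIP and CB of the same embryos, which carry the same numbers, 5 of 6 pairs were above 0.1, with median r of 0.33 and 0.29. Whether the numbers mark pairs of mice was not settled by this rule. Each of the other 8 datasets had a pair at or below 0.1.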

Additional observations from a re-analysis of the deposited data

Results flagged for a closer look

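In 13 of 180 groups of libraries (each member in each period, region and genotype), 1 library lay far from the other 5, or 4 in adults, by Dixon's test, and chance alone gives about 9. Of the 13, 8 were at E17.5, none at P7 and 5 at P35, and 12 were high.

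Mouse S3_9, a HET embryo, gave 4 of them: Tm4sf1 in CX with 2.02 CPM (next library 1.305), Pecam1 in CX with 20.8 CPM (16.7) and in HIP with 35.3 CPM (24.2), and Pcdh12 in HIP with 15.9 CPM (11.9). The cerebellum of HET embryo S4_3 gave 3: Mmrn1 with 4.48 CPM (1.61), Igfbp7 with 17.8 CPM (12.7) and Cldn5 with 51.6 CPM (35.8). Ets1 was at 53.9 CPM (49.98) in HIP of HET embryo S2_7. In adults, Nrp1 was at 61.4 CPM (51.3) in CX of HET mouse 27 and low, at 131.8 CPM (142.7), in HIP of WT mouse 26. Igfbp7 was at 19.0 CPM (14.5) in CB of that same WT mouse 26. Tm4sf1 was at 10.7 CPM (8.64) in CX of WT mouse 17 and at 18.6 CPM (14.5) in HIP of HET mouse 32.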

How the results depend on the processing

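None of the 10 members was called for genotype at E17.5 or P35 under any alternative that was run: edgeR with upper-quartile normalization, without the low-count filter, with RUVs factors or with a block, DESeq2, the 2 adult mice put back under either genotype, the counts of the 3 regions summed per mouse, and each replicate left out (0 to 0 members called in each dataset). With the replicate number as a block, 0 members were called in embryonic CX, where the number of all genes called went from 1 to 55 of 16594. In the other datasets of E17.5 and P35, 0 members were called with this block as well. Over all genes, 1 was called with it in embryonic HIP and 1 in embryonic CB, which come from the same embryos under the same numbers. Over all genes, DESeq2 called 211 of 17110 in adult CB and RUVs 15 of 17123 in adult HIP, against 1 in each without them. With the 2 adult mice put back under the genotype of the study table, 0 genes were called in adult CX, HIP and CB, against 2, 1 and 2 under that of the labels. The replicate block called 0 genes in adult CB. In these settings not even Cul3 was called, so they say nothing about the members. At P7 the median log2 fold change of the 8 shifting genes stayed between 0.222 and 0.280 in CX, 0.170 and 0.236 in HIP and 0.181 and 0.233 in CB over the other alternatives, and with the replicate block it was 0.268, 0.218 and 0.199. With replicates left out it was 0.237 to 0.292 in CX, 0.170 to 0.240 in HIP and 0.160 to 0.223 in CB. Each shifting gene and Pecam1 was above 0 in each region, which the choice of the genes favours, and Cldn5 in CB lay between −0.04 and 0.04.

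Between periods, the number of members called with replicates left out was 9 to 10 (P7 over E17.5 in CX), 9 to 9 (P35 over P7 in CX and in HIP), 6 to 9 (P7 over E17.5 in HIP, with 9 without replicate 4) and 10 to 10 (both in CB). In HIP between E17.5 and P7, Cd93, Mmrn1, Pcdh12 and Pecam1 were called under some alternatives, and the calls of Ets1 and Igfbp7 were lost under others. With WT libraries alone, Igfbp7 in CX between P7 and P35 turned from a fall to 0.00595 log2.

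Between regions, the number called with replicates left out was 10 to 10 (CX over HIP at E17.5 and P7, CX over CB at P7), 7 to 10 (CX over CB at E17.5), 9 to 10 (HIP over CB at E17.5 and P7), 3 to 6 (CX over HIP at P35, with 3 without HET replicate 3), 9 to 9 (CX over CB at P35) and 7 to 8 (HIP over CB at P35). For HIP over CB at E17.5 it was 5 with WT libraries alone, and for CX over HIP at P35 it was 3 with WT libraries alone, 3 without the low-count filter and 3 with no replicate block. The cause was not tested.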

Other observations

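The fibroblast list of 9 genes varied widely between libraries of the embryonic cerebellum, from 21.2 to 131 CPM in sum in WT and from 32.5 to 376 CPM in HET embryos. The pan-endothelial list of 18 genes had a summed level of 135 to 152 CPM in WT and of 140 to 215 CPM in HET embryos there. After P7 the 8 basement membrane genes had medians of −1.32, −1.69 and −1.91 log2 in CX, HIP and CB, with 7, 7 and 6 of the 8 called lower, a wider fall than that of the pan-endothelial list (−0.29, −0.70 and −0.57). The VEGF pathway list had medians of −0.03, −0.25 and −0.31 over the same interval, and 5 of its 11 genes were called higher and 5 lower in CX. Where the counts of the 3 regions were summed per mouse, Mmrn1 had a log2 fold change of 0.78 at E17.5 (adjusted p = 0.98, edgeR) and 0.22 in adults (adjusted p = 0.95, edgeR), with Cd93 at 0.26 and 0.15.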
